A study of Rattus norvegicus with 4 samples.

Results

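Interferon responsive genes were followed in the adrenal medulla, the inner part of the adrenal gland that releases adrenaline and noradrenaline, in rats that had been immobilized for 2 h and in unstressed rats. Immobilization is a common experimental stressor in rodents. The genes Irf1, Irf7, Stat2, Cxcl10, Mx1, Mx2, Isg15, Psmb8 and Psmb9 were taken by name, and every probe set whose platform annotation lists only 1 of them was used. A probe set is a group of short probes that together report on a transcript. This gave 11 probe sets for 9 of the 14217 genes that had a probe set of their own. Stat2 and Mx2 had 2 each, and 0 probe sets named a member together with another gene.

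Total RNA was hybridised to 4 single-colour arrays, 2 from immobilized rats and 2 from unstressed rats, called immobilized 1 and 2 and unstressed 1 and 2. The labels give both groups as adrenal medulla of rats. They give no strain, sex, age or number of animals per array, nor how soon after immobilization the tissue was taken, and p-values here reflect only how far these arrays differ from each other, which may be technical. In bulk tissue, fewer cells of a type and less RNA per cell cannot be told apart. Of 9 chromaffin cell markers 8 had a probe set and all 8 were bright enough to test, while 7 of 10 markers of the adrenal cortex, the outer part of the gland, were as well. All readings of the 11 probe sets, from 759.8 to 26943 intensity units, lay above the 27 control probe sets for Bacillus transcripts, which read 2.18 to 256.6.

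Interferons are secreted proteins, and those of type I are made by cells on sensing viral nucleic acid. Type I interferons act through a receptor made of Ifnar1 and Ifnar2 and through a complex holding Stat2 and Irf9 that binds the interferon stimulated response element, ISRE, in promoters. Interferon gamma acts through Ifngr1 and Ifngr2, and many of its target promoters hold the gamma activated site, GAS. Irf1 and Irf7 are transcription factors of the pathway, Cxcl10 is a secreted chemokine, Mx1, Mx2 and Isg15 are antiviral effectors, and Psmb8 and Psmb9 are inducible catalytic subunits of the proteasome. Several of these genes, Irf1 and Cxcl10 among them, also respond to NF-kB.

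Most of these probe sets read lower after immobilization and 1 read higher. Irf1, 1 of 2 Stat2 probe sets, Cxcl10, 1 of 2 Mx2 probe sets and Psmb8 fell, and Isg15 rose. By limma's test, with a threshold of 0.05 on the p adjusted by Benjamini-Hochberg, 5 of 11 probe sets fell and 1 rose, against 19.4% falls and 11.7% rises among all 18625 probe sets tested. All 11 were bright enough to be tested. The genes, and the lists below, were chosen with earlier results of these data known. Their shares beside those of all probe sets or genes are therefore descriptions and not tests. With each gene read by its brightest probe set, 3 of 9 genes fell (33.3%) and 1 rose (11.1%). Among all 10320 genes tested in that way, 21.8% fell and 11.2% rose. The groups did not overlap for 10 probe sets, 9 of them lower in immobilized rats, against 42.4% lower and 25.5% higher without overlap among all probe sets tested. The median log2 change of the 11 was -0.50, against -0.12 over all probe sets tested. Every change is immobilized minus unstressed on the scale log2(intensity + 16). After centring each array on its median, the median over all probe sets tested was 0.02, and 3 of 11 fell and 1 rose, against 13.4% and 15.3% of all. Without immobilized 1 there were 2 falls and 0 rises, where 6.17% and 5.12% of all probe sets fell and rose. Without immobilized 2 there were 2 falls and 1 rise, against 5.32% and 4.16%. The falls numbered 3 without unstressed 2 and 6 without unstressed 1, where 19.1% and 20.2% of all fell.

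**Figure D1:**
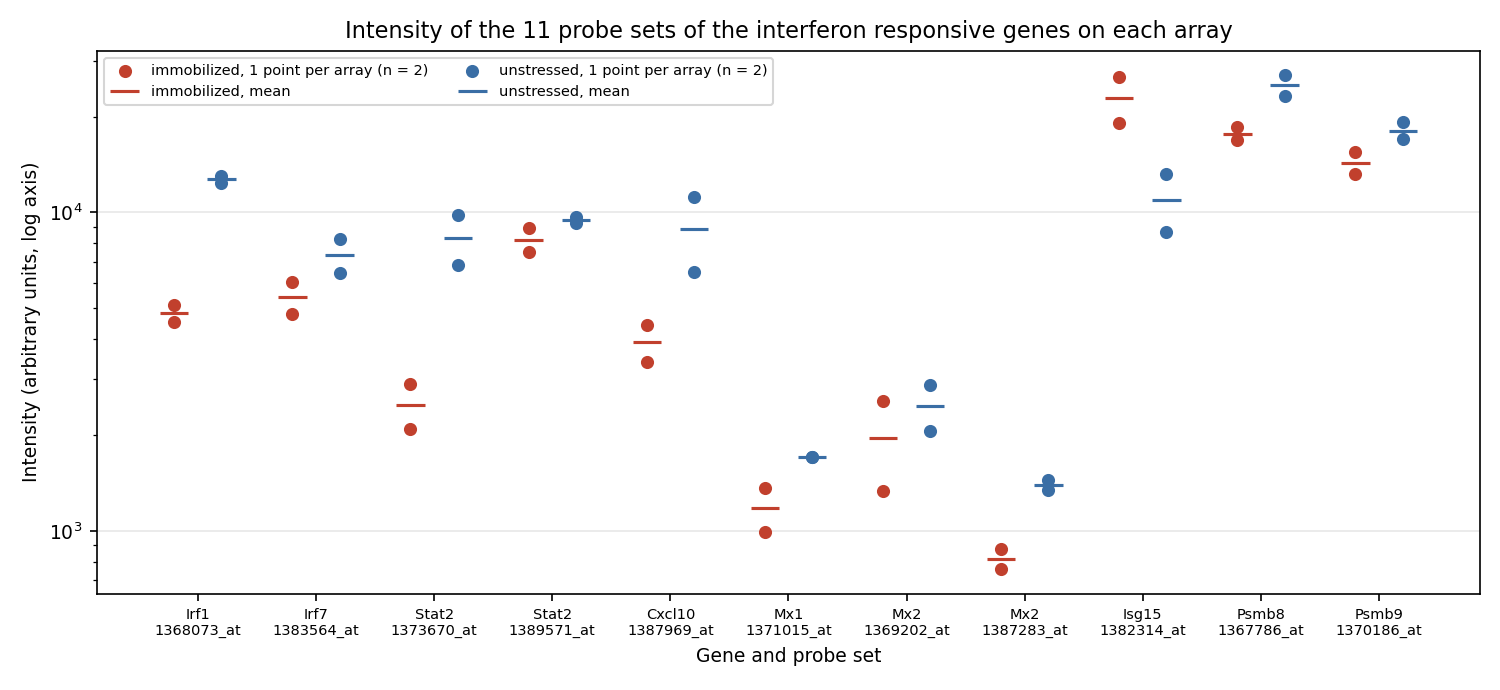
Intensity in arbitrary units, on a log axis, of each of the 11 probe sets on the 4 arrays, with immobilized arrays (red) left of unstressed arrays (blue), 1 point per array and a bar at the mean of the 2 arrays. The immobilized points lie below the unstressed points for 9 probe sets, above them for Isg15, and overlap them for Mx2 probe set 1369202_at; the 2 unstressed Mx1 points coincide.

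Irf1, a transcription factor whose own gene is a textbook target of interferon gamma, fell. Its probe set 1368073_at read 4519 and 5116 on the immobilized arrays, against 13043 and 12369 on the unstressed arrays. Both immobilized readings were far below both unstressed readings, and the spread within each group was small. The log2 change was -1.40 ± 0.13 (SE, n = 2 per group), 2.64-fold lower, with a 95% interval of -1.70 to -1.10 and an adjusted p of 0.000688 in limma. The call stood with each array left out in turn, where the change ranged from -1.49 to -1.31. The promoter of Irf1 is shown because this was the fall with the smallest adjusted p among the 11 probe sets. It is the RefSeq window of 250 bases before to 50 bases after the gene's start in the build GRCr8, on the + strand at chr10:38417685-38417984, with a GAS match in capitals.
Irf1: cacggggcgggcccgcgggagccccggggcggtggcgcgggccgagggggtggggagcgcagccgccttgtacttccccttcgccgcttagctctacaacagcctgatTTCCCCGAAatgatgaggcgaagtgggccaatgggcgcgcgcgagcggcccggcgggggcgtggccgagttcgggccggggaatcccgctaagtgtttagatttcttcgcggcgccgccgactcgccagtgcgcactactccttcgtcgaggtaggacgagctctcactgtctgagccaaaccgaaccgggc

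Promoters were searched on both strands for ISRE (GAAA, 2 bases of any kind, GAAA), for GAS (TTC, 3 bases of any kind, GAA, which is its own reverse complement) and for NF-kB (GGG, 2 bases of any kind, TTTCC). No match overlapped that of another motif. Of 33469 promoters of the same length, 3.92% held the ISRE letters, 8.87% the GAS letters and 1.53% the NF-kB letters. The promoters of 7 of the 9 genes were found, those of Irf1, Irf7, Stat2, Cxcl10, Mx1, Psmb8 and Psmb9. The ISRE letters stood in those of Irf7, Cxcl10 and Psmb8, the GAS letters in those of Irf1 and Psmb8, and the NF-kB letters in 0. A match describes the letters in a window and is not a site of binding. Sites spelled otherwise are missed by this search, so 0 matches does not mean 0 sites. In Irf1 the GAS match began 142 bases before the start and ended 134 bases before it, and in Irf7 the ISRE match ran from 69 to 60 bases before it.

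Irf7 amplifies the production of type I interferons. Its probe set 1383564_at read 4813 and 6061 on the immobilized arrays, against 6457 and 8226 on the unstressed arrays. The groups did not overlap, but the gap between them was smaller than the spread within either group. The log2 change was -0.43 ± 0.18, with an interval of -0.85 to -0.01 and an adjusted p of 0.107 in limma, and it passed the threshold without unstressed 1 (-0.61, adjusted p = 0.0182). Irf1 and Irf7 thus had the same sign, and whether their changes differed was not tested.

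Stat2, which works with Irf9 in the response to type I interferon, gave different values in its 2 probe sets. Probe set 1373670_at read 2887 and 2092 on the immobilized arrays, against 6823 and 9841 on the unstressed arrays. Both unstressed readings were far above both immobilized ones. It fell by 1.73 ± 0.23 on the log2 scale, 3.32-fold lower, with an adjusted p of 0.00256 in limma, and the call stood with each array left out, at -1.99 to -1.47. The other probe set, 1389571_at, read 8914 and 7516 on the immobilized arrays, against 9271 and 9705 on the unstressed arrays. Its groups lay close together, with a log2 change of -0.21 ± 0.13, an interval of -0.53 to 0.10 and an adjusted p of 0.269. Within each array, the first minus the second was -1.62 and -1.84 on the log2 scale in immobilized rats, against -0.44 and 0.02 in unstressed rats. The 2 intervals do not overlap, so a statement on Stat2 as a whole depends on which probe set is read, and the cause of the disagreement was not tested.

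Cxcl10, a chemokine that attracts T cells through the receptor Cxcr3, fell. Its probe set 1387969_at read 4440.4 and 3386 on the immobilized arrays, against 6512 and 11180.2 on the unstressed arrays. Unstressed 2 stood well above the others, and the immobilized readings were both below unstressed 1. The log2 change was -1.13 ± 0.26, 2.20-fold lower, with an interval of -1.76 to -0.51 and an adjusted p of 0.0192 in limma. The call was lost without immobilized 1 (-1.33, adjusted p = 0.0728) and without immobilized 2 (-0.94, adjusted p = 0.148), and the size was -0.75 without unstressed 2, where the call stood. Its promoter window, on the + strand at chr14:15988816-15989115 in GRCr8, is shown for its ISRE match, in capitals, 243 to 234 bases before the start.
Cxcl10: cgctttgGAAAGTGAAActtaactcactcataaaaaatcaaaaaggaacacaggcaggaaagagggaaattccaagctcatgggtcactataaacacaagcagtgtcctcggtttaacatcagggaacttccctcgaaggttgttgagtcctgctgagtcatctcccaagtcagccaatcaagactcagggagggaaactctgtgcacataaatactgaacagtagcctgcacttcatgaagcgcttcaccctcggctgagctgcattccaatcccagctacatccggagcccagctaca

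Mx1 and Mx2 encode dynamin-like GTPases that act against viruses, and their transcription is a standard readout of type I interferon. Mx1 probe set 1371015_at read 995 and 1368 on the immobilized arrays, against 1711 and 1705 on the unstressed arrays. The unstressed readings nearly coincided and both immobilized readings were lower. The log2 change was -0.54 ± 0.23, with an interval of -1.08 to -0.01 and an adjusted p of 0.112 in limma. Mx2 probe set 1387283_at read 759.8 and 878 on the immobilized arrays, against 1347 and 1442 on the unstressed arrays. It fell by 0.76 ± 0.21 on the log2 scale, 1.69-fold lower, with an adjusted p of 0.0348 in limma. The call was lost without unstressed 2, immobilized 1 or immobilized 2 (-0.71, -0.66 and -0.86, with adjusted p of 0.0744, 0.174 and 0.113), after quantile normalization (-0.61, adjusted p = 0.0665), after median centring (-0.62, adjusted p = 0.0722) and with no filter on dim probe sets (adjusted p = 0.0524).

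The other Mx2 probe set, 1369202_at, read 1337 and 2567 on the immobilized arrays, against 2869.7 and 2054 on the unstressed arrays. Here immobilized 2 lay between the unstressed readings, so the groups overlapped. Its log2 change was -0.39 ± 0.33 with an adjusted p of 0.409, and 0.08 without immobilized 1, so even its sign rested on that array. Mx1 and Mx2 are related genes that lie near each other, with 1 protein-coding gene, Fam3b, between them in GRCr8. Probe sequences were not used here, so whether a probe set reads both transcripts was not tested.

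Isg15, a ubiquitin-like protein that is attached to other proteins after interferon, was the 1 member that rose. Its probe set 1382314_at read 26624 and 19056 on the immobilized arrays, against 8674 and 13249 on the unstressed arrays. Both immobilized readings were above both unstressed readings, and the arrays within each group differed by roughly as much as the nearest arrays of different groups. The log2 change was 1.07 ± 0.24, 2.10-fold higher, with an interval of 0.50 to 1.64 and an adjusted p of 0.0168 in limma. Without immobilized 1 it was 0.83 with an adjusted p of 0.117, and without immobilized 2 it was 1.31 with an adjusted p of 0.0499. The change was 0.94 after quantile normalization and 1.21 after median centring, both past the threshold. Of 7 enzymes that attach or remove Isg15 or related ligases, 1 rose and 1 fell (14.3% each), near the 11.2% rises and 21.8% falls of all 10320 genes tested, each gene read by its brightest probe set. Usp18, the protease that removes Isg15 from proteins and restrains the type I receptor, fell by 1.03 ± 0.17 (1514 and 1355 in immobilized rats, against 2994 and 2874 in unstressed rats, adjusted p = 0.00605 in limma), though not without immobilized 2 (adjusted p = 0.0655). Herc4, a ubiquitin ligase of the family to which the Isg15 ligase belongs, rose by 1.48 ± 0.12. The activating and conjugating enzymes Uba7 and Ube2l6 missed the threshold at -0.38 and -0.34.

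Psmb8 and Psmb9 encode the subunits LMP7 and LMP2, which take the places of Psmb5 and Psmb6 in the immunoproteasome and favour peptides for MHC class I. Psmb8 probe set 1367786_at read 18490.2 and 16872 on the immobilized arrays, against 23159 and 26943 on the unstressed arrays. The groups were apart, and Psmb8 fell by 0.50 ± 0.14 on the log2 scale, 1.41-fold lower, with an adjusted p of 0.0336 in limma. This small fall lost its call without unstressed 2, immobilized 1 or immobilized 2 (-0.39, -0.57 and -0.43, with adjusted p of 0.132, 0.0765 and 0.137), after median centring (-0.36, adjusted p = 0.108), with no filter (adjusted p = 0.0548) and without the intensity trend (adjusted p = 0.071). Psmb9 probe set 1370186_at read 13232 and 15453 on the immobilized arrays, against 16979 and 19171 on the unstressed arrays. Its log2 change of -0.34 ± 0.14 had an adjusted p of 0.111, but 0.0232 at -0.46 after quantile normalization. The Psmb8 window, on the - strand at chr20:4656982-4657281 in GRCr8, is shown because it held 2 kinds of match, in capitals, a GAS match 245 to 237 bases before the start and an ISRE match that spans the start.
Psmb8: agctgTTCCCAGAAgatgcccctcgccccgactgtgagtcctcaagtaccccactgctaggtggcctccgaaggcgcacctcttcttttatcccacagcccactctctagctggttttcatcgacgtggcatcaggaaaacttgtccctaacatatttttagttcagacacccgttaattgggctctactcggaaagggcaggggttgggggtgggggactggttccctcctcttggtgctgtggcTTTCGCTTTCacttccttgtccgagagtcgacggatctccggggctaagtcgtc

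Psmb8 and Psmb9 lie close together on chromosome 20 of GRCr8 with 1 protein-coding gene, Tap1, between them. The Tap1 and Psmb9 windows overlap by 44 bases on opposite strands. Tap1, a subunit of the peptide transporter of MHC class I, fell by 0.58 ± 0.16 (2194 and 2044 in immobilized rats, against 3336 and 3022 in unstressed rats, adjusted p = 0.0333 in limma). That call did not survive leaving out unstressed 1, immobilized 1 or immobilized 2 (adjusted p of 0.0662, 0.13 and 0.188), nor did it stand after quantile normalization (0.0769) or median centring (0.0837). The constitutive subunit genes Psmb5 and Psmb7 had log2 changes of -0.24 ± 0.17 and -0.0022 ± 0.14, and Psmb10, the remaining immunosubunit gene, had -0.29 ± 0.12. None of these passed (adjusted p of 0.31, 0.992 and 0.108). Of 11 tested proteasome genes other than Psmb8 and Psmb9, 0 rose and 0 fell in limma, against 11.2% rises and 21.8% falls among all genes tested at the same adjusted threshold. At an unadjusted p under 0.05, 0 of these 11 rose and 1 fell. After quantile normalization 4 of these 11 fell, Psmb5 among them, where 20.3% of all genes fell. Whether Psmb8 differed from its constitutive counterpart was not tested.

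**Figure D2:**
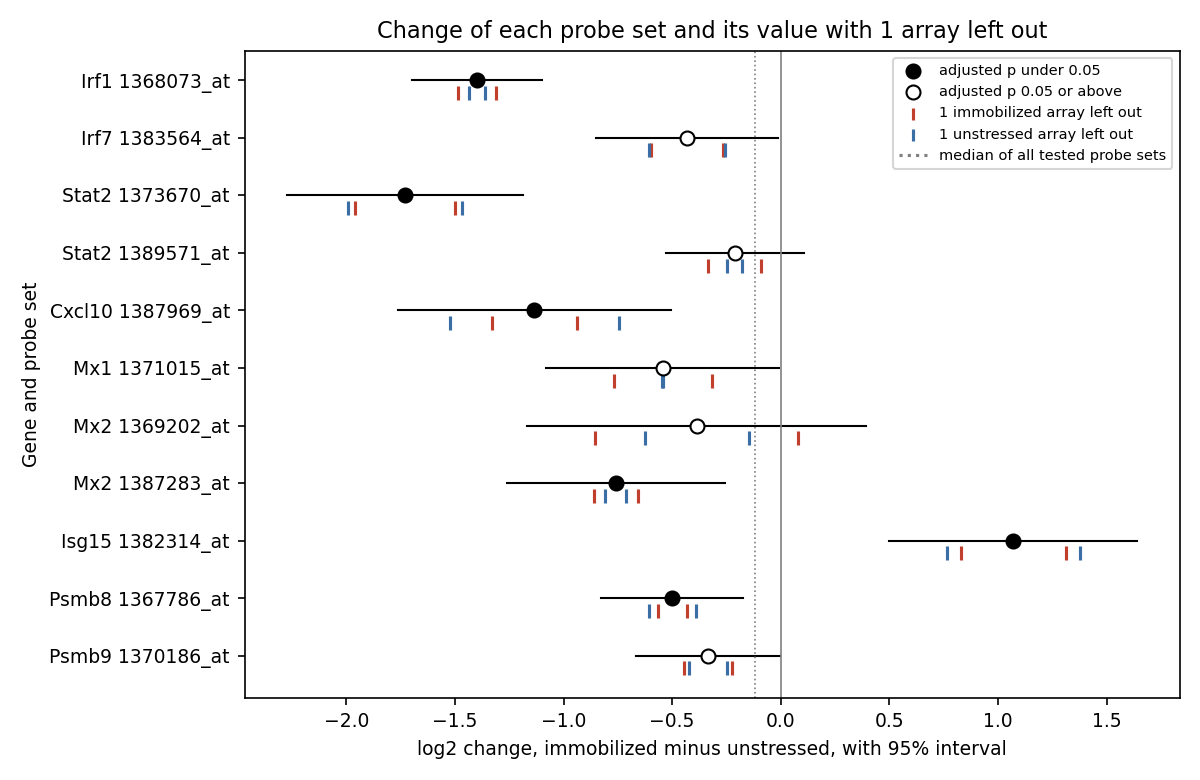
Log2 change of each of the 11 probe sets, immobilized minus unstressed, with its 95% interval from limma; filled circles have an adjusted p under 0.05 and ticks give the value with 1 immobilized (red) or 1 unstressed (blue) array left out. Irf1 and Stat2 probe set 1373670_at lie farthest to the left, at -1.40 and -1.73, Isg15 lies to the right at 1.07, and the dotted line is the median of all tested probe sets, -0.12.

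Upstream of these genes, the interferons themselves were not shown to be above background. Ifng read 61.4 and 80.2 on the immobilized arrays, against 82.9 and 138.4 on the unstressed arrays. Ifnb1 read 28.7 and 17.1 on the immobilized arrays, against 53.4 and 133.5 on the unstressed arrays. No reading of either was as high as the brightest Bacillus control, and neither gene was tested. Of 14 listed interferons and inducers, 6 had a probe set and 2 were tested. Il18, an inducer of interferon gamma, rose by 0.54 ± 0.15 and Il12a, a subunit of interleukin 12, fell by 1.13 ± 0.30. Il12a read 494 and 316 on the immobilized arrays, against 1036 and 755 on the unstressed arrays. Both immobilized readings lay under the level that the mean over the arrays had to reach for testing. Il12a thus passed the filter through its unstressed readings. It was not tested with unstressed 1 left out or with the filter at the 60th percentile. With no filter Il12a missed the threshold in limma (adjusted p = 0.0674). In limma, Il18 missed the threshold with unstressed 2, immobilized 1 or immobilized 2 left out (adjusted p of 0.114, 0.101 and 0.173), and Il12a with immobilized 1 or immobilized 2 left out (0.0634 and 0.194).

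Of 13 tested receptor chains, kinases and STATs other than Stat2, 1 rose (7.69%) and 5 fell (38.5%), against 11.2% and 21.8% of all genes tested. The median of the list was -0.42, against -0.14 over all genes tested. The kinase gene Tyk2, which is bound to Ifnar1, fell by 1.90 ± 0.22, from readings of 762 and 595 on the immobilized arrays, against 2490 and 2639 on the unstressed arrays. Stat3, the STAT of the interleukin 6 family, rose by 1.43 ± 0.13. With each gene read by its brightest probe set, Tyk2 and Stat3 stood apart from the rest of the list in size. Il10rb, a receptor chain shared by interferon lambda and interleukin 10, fell by 0.76 ± 0.17, and missed the threshold in limma with either immobilized array left out (adjusted p of 0.0506 for the first and 0.128 for the second).

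The interferon receptor chains themselves, each read by its brightest probe set, had smaller and less stable changes. Ifnar1 had 3 tested probe sets, with log2 changes from -1.14 to -0.38, and the values below are those of the brightest. Ifnar1 fell by 0.74 ± 0.23, and its adjusted p was 0.12, 0.228 and 0.114 without unstressed 1, immobilized 1 and immobilized 2. Ifngr1 fell by 0.42 ± 0.12, and its adjusted p was 0.0984, 0.142 and 0.123 without unstressed 2, immobilized 1 and immobilized 2. Ifnar2 and Ifngr2 missed the threshold at -0.26 each. Irf9, the DNA-binding partner of Stat2, fell by 0.48 ± 0.15 with an adjusted p of 0.0493, and that call was lost under 9 of 12 alternatives, with an adjusted p of 0.0987, 0.248 and 0.157 without unstressed 2, immobilized 1 and immobilized 2. The falls in this list numbered 1 of 13 without immobilized 1, where 7.3% of all genes fell, and 1 without immobilized 2, where 6.36% fell. They numbered 2 after median centring, where 15.0% of all genes fell, and 3 without unstressed 2, where 21.6% fell.

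Among other members of the IRF family and its partners, 1 of 7 rose (14.3%) and 3 fell (42.9%), against 11.2% and 21.8% of all genes tested, with a median of -0.30 against -0.14. Irf2, which can oppose Irf1 at the same sites, rose by 0.81 ± 0.16 (5821 and 7367 in immobilized rats, against 3949 and 3514 in unstressed rats), though not without immobilized 2 (0.64, adjusted p = 0.11 in limma). Irf1 and Irf2 thus had opposite signs. The cofactor genes Irf2bp1 and Irf2bpl fell, with changes of -0.72 ± 0.13 and -0.73 ± 0.12. Irf2bp1 missed the threshold with immobilized 1 or immobilized 2 left out (adjusted p of 0.0608 and 0.0877), and Irf2bpl with immobilized 2 left out (0.0613). Irf9 is the third fall of this list.

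Of 11 tested negative regulators of interferon and JAK-STAT signalling, 3 rose and 3 fell (27.3% each), against 11.2% and 21.8% of all genes tested. The share of falls and the median, -0.19 against -0.14, were near those of all genes. The phosphatase gene Ptpn2, which acts on JAKs and STATs, rose by 1.06 ± 0.13 and Ptpn1 by 1.05 ± 0.16. Socs3, an inhibitor induced by Stat3, rose by 1.35 ± 0.21. Pias3, an inhibitor of Stat3, fell by 1.83 ± 0.17, next to Usp18 above and to Pias4 at -0.62 ± 0.18. In limma, Ptpn1 (adjusted p of 0.0507 and 0.0631), Socs3 (0.0529 and 0.0551) and Pias4 (0.128 and 0.21) no longer passed with immobilized 1 or immobilized 2 left out, nor did Pias4 with unstressed 2 left out (0.103). Socs1 read 262 and 192 on the immobilized arrays, against 155 and 79.1 on the unstressed arrays, near the brightest Bacillus control or below it, and was not tested.

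Among the wider type I interferon stimulated genes most changes were downward, with a few large rises. Of 41 tested, 19 fell, 3 rose and 19 did not pass, with a median log2 change of -0.50. These shares were 46.3% and 7.32%, against 21.8% and 11.2% among all genes tested. Because the list was chosen with earlier results of these data known, this contrast is a description and not a test. Rtp4, a chaperone of G-protein coupled receptors, read 1741 and 3345 on the immobilized arrays, against 9181 and 10280.3 on the unstressed arrays. It fell by 2.00 ± 0.29 on the log2 scale. Slfn5 fell by 1.77 ± 0.13. Pml, the organiser of nuclear bodies, and Dhx58, a sensor of viral RNA, fell with changes of -1.66 ± 0.20 and -1.58 ± 0.34. Dhx58 read 272 and 546 on the immobilized arrays, against 1228 and 1153 on the unstressed arrays. The mean of its immobilized readings, 409, lay under the level needed for testing, about 544. Dhx58 thus passed the filter through its unstressed readings, and it was not tested with the filter at the 60th percentile. Dhx58 missed the threshold in limma with immobilized 1 left out (adjusted p = 0.0718).

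The rises in the same list were those of Ifit3, Oasl and Slfn2. Ifit3, which binds Ifit1 in its action on viral RNA, read 8116 and 7249.95 on the immobilized arrays, against 1075 and 2038 on the unstressed arrays, a rise of 2.36 ± 0.29. Oasl, of the oligoadenylate synthetase family, read 27022 and 23603 on the immobilized arrays, against 8962 and 7514 on the unstressed arrays, a rise of 1.62 ± 0.14. Both rises kept their call under all 12 alternatives to the fit. Slfn2 rose by 0.65 ± 0.18, and its adjusted p was 0.0571, 0.0789 and 0.24 without unstressed 1, immobilized 1 and immobilized 2. Ifit2, a near relative of Ifit3, missed the threshold at -0.42 ± 0.27, and Ifit1 was too dim to be tested.

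The count for this list depended on the arrays and the scaling. After median centring 15 fell and 6 rose, against 15.0% falls and 14.6% rises of all genes. Without immobilized 1 there were 7 falls and 2 rises, where 7.3% and 5.34% of all genes fell and rose. Without immobilized 2 there were 10 falls and 2 rises, against 6.36% and 4.48%. Of the tested genes of the list, 35 had a promoter in the RefSeq windows, and the ISRE letters stood in 21. Of those 21, 11 fell and 1 rose, with a median of -0.71. Of the other 14, 5 fell and 2 rose, with a median of -0.36. Over all genes tested in the same fit, 21.8% fell and 11.2% rose, with a median of -0.14. The difference between the subsets with and without the ISRE letters was not tested.

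**Figure D3:**
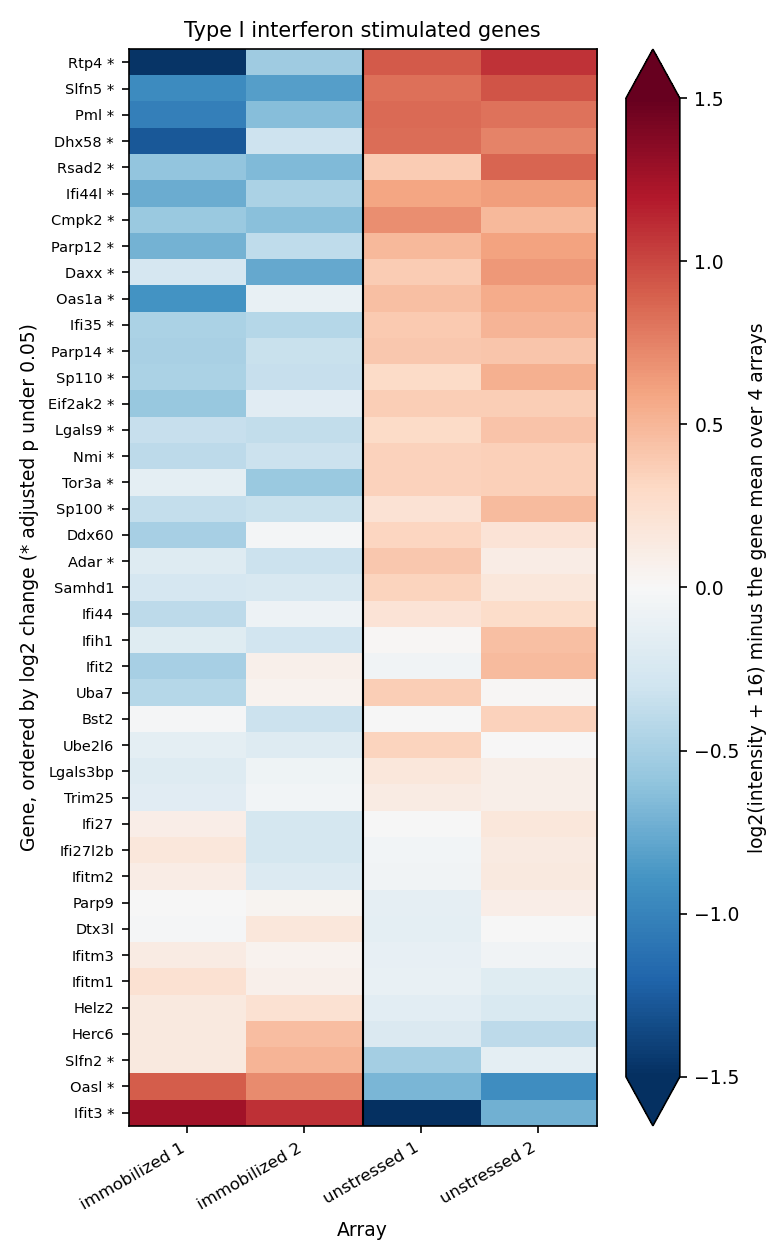
Log2(intensity + 16) of the 41 tested type I interferon stimulated genes on each array, minus the gene's mean over the 4 arrays, with the immobilized arrays left of the line and genes ordered by log2 change from most negative at the top. The 19 falls stand in the upper part, with Rtp4 at the top at -2.00, and Oasl and Ifit3 stand at the bottom at 1.62 and 2.36.

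Of 16 tested interferon gamma stimulated genes, 2 rose (12.5%) and 3 fell (18.8%), shares near the 11.2% and 21.8% of all genes tested. The median was 0.03, against -0.14 over all genes. The 3 falls were those of the immunity-related GTPase genes Irgm2, Igtp and Irgm, which guard against pathogens inside vacuoles. Irgm2 read 3356 and 3743 on the immobilized arrays, against 17184 and 17934 on the unstressed arrays. It fell by 2.30 ± 0.12, while Igtp fell by 1.82 ± 0.14 and Irgm fell by 1.27 ± 0.17. All of these calls stood under the 12 alternatives. The rises were those of the adhesion molecule genes Icam1 (2.37 ± 0.27) and Vcam1 (0.64 ± 0.16), which also respond to NF-kB. Vcam1 missed the threshold in limma when either immobilized array was left out (adjusted p of 0.0565 for the first and 0.173 for the second). The guanylate-binding protein genes Gbp2, Gbp4 and Gbp7 did not pass, at -0.39, -0.41 and 0.14, and the chemokine Cxcl9, of the same family as Cxcl10, was too dim to be tested.

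Of 15 tested genes of MHC class I processing, 0 rose and 3 fell (20.0%) in limma, against 11.2% and 21.8% of all genes tested, and 1 rose at an unadjusted p under 0.05. The share of falls and the median, -0.11 against -0.14, were near those of all genes. Besides Tap1, the class I genes RT1-S3 and RT1-M3-1 fell, with changes of -0.61 ± 0.15 and -0.47 ± 0.14. Class I genes are much alike, so these probe sets may read several of them. RT1-S3 missed the threshold with immobilized 1 left out (adjusted p = 0.134), and RT1-M3-1 with unstressed 1, immobilized 1 or immobilized 2 left out (0.104, 0.114 and 0.248). After median centring 0 fell and 1 rose, where 15.0% and 14.6% of all genes did. B2m, the invariant chain of class I, had a change of -0.22 ± 0.19.

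Of 12 tested sensors and adaptors that lead to interferon production, 3 rose (25%) and 4 fell (33.3%), against 11.2% and 21.8% of all genes tested, with a median of -0.22 against -0.14. The falls were adaptors upstream of interferon genes. Traf3 and Tank had log2 changes of -1.57 ± 0.18 and -1.53 ± 0.26. Mavs, the mitochondrial adaptor of RNA sensors, fell by 1.43 ± 0.20, and Ticam1, the adaptor of Tlr3, fell by 1.18 ± 0.18. The rises were Nfkb1 (1.62 ± 0.12), Traf6 (1.24 ± 0.26) and Rela (0.45 ± 0.12), which serve NF-kB signalling. In limma, Tank (adjusted p of 0.0607 and 0.0524), Traf6 (0.0693 and 0.118) and Rela (0.107 and 0.206) missed the threshold with immobilized 1 or immobilized 2 left out, and Rela did with unstressed 1 left out (0.0599). Of the 40 called genes named from these lists, 18 kept their call under every alternative in which they were tested, 7 rises and 11 falls. Quantile normalization or median centring ended the calls on Ifnar1, Ifngr1, Il18, Irf9, Pias4, RT1-S3, RT1-M3-1 and Tap1.

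**Figure D4:**
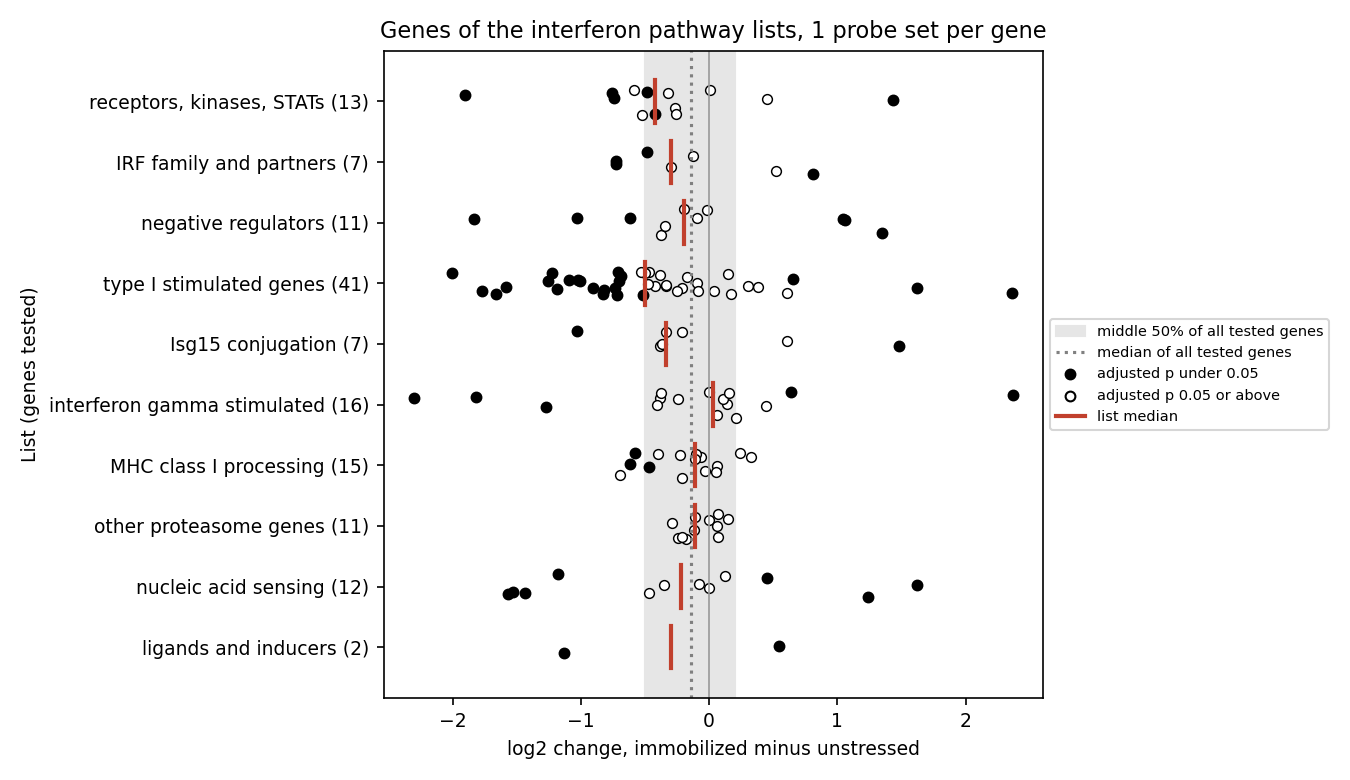
Log2 change, immobilized minus unstressed, of every tested gene of the interferon pathway lists, with 1 point per gene, filled where the adjusted p is under 0.05, and a red bar at the list median. The shaded band holds the middle 50% of all tested genes, from -0.50 to 0.20, and the type I stimulated genes have a median of -0.50, at its lower edge, with most filled points to its left.

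Leukocytes and endothelial cells respond to interferon, so their markers were read beside these genes. Calls among them stand against 11.2% rises and 21.8% falls among all genes tested. Of 15 macrophage markers 12 were tested, of which 0 rose and 0 fell in limma, and 2 rose and 0 fell at an unadjusted p under 0.05. Their summed intensity was 91574 to 106570 in immobilized rats, against 93129 to 97383 in unstressed rats. Of 13 T and NK cell markers 4 were tested and 0 rose or fell (1 rose at an unadjusted p under 0.05), with sums of 6351 to 6841 in immobilized rats, against 6915 to 7349 in unstressed rats; 8 of the 12 with a probe set were too dim to test. Of 5 general leukocyte markers 4 were tested and 1, Coro1a, fell by 0.72 ± 0.21, with sums of 8268 to 9369 against 9105 to 9792. Of 8 tested endothelial markers 2 rose and 1 fell (3 rose and 2 fell at an unadjusted p under 0.05), with sums of 56321 to 59067 against 54445 to 64149. Of the 8 chromaffin markers 0 rose and 0 fell in limma, also at an unadjusted p under 0.05, with sums of 283252 to 396794 against 296569 to 325758. Of the 7 adrenal cortex markers 1 rose and 0 fell (1 rose and 1 fell at an unadjusted p under 0.05), with sums of 256627 to 351316 against 327734 to 367696.

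Of 7 granulocyte markers 4 had a probe set and 0 were bright enough to test. S100a8 read 375 and 341 on the immobilized arrays, against 14.8 and 82.5 on the unstressed arrays, and S100a9 read 905 and 839, against 121.5 and 179.8. Both were higher in immobilized rats without overlap, though the mean of each over the 4 arrays lay under the level needed for testing. On the immobilized arrays alone, S100a9 read above that level, about 544, and S100a8 read below it. For the other two the groups overlapped, with Csf3r at 131 and 208 in immobilized rats, against 185 and 204 in unstressed rats, and Cxcr2 at 219 and 334 in immobilized rats, against 256 and 233 in unstressed rats. The sum over these 4 markers, 1630 to 1722 in immobilized rats against 578 to 699 in unstressed rats, thus differed through S100a8 and S100a9. The part of these cells in the changes of the interferon responsive genes was not tested.

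The genes most like Irf1 over the 4 arrays were found by the Euclidean distance between log2 profiles after centring each on its mean. The nearest were Tef, an output factor of the circadian clock, at 0.05 log2 units, Zfp292 at 0.05 and Mitd1 at 0.08, against a median distance of 1.33 over all probe sets tested. Their log2 changes were -1.43, -1.45 and -1.34. With 4 arrays in 2 groups the measure mostly follows the difference between groups, and 313 probe sets lay within 0.3 of Irf1.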

How the data were processed

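Total RNA of rat adrenal medulla was measured on 4 arrays, grouped by the submitters' descriptions and numbered within each group in accession order, which pairs nothing. The deposited table gives 1 linear intensity per probe set and array for 31099 probe sets. How the authors summarised probes, and with which tool, is a step not given in the sources used. The columns of the table share a trimmed mean of 2501 (2% left out at each end) to within 0.00572%, so no scaling was added. There were 0 unused sample columns.

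After removal of 57 control probe sets, log2(intensity + 16) was computed. Testing was limited to the 18625 of 31042 probe sets whose mean over the arrays reached the 40th percentile, about 544 intensity units. The test was that of limma 3.58.1 under R 4.3.3 (lmFit, then eBayes with trend, two-sided, 6.81 degrees of freedom). Benjamini-Hochberg adjustment covered every probe set tested, at a threshold of 0.05. The fit was tested on simulated data. An exact permutation test of 2 arrays against 2 cannot give a p below 0.333 and is not reported. The number of arrays limits precision.

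Genes were named from the platform annotation, where 20826 probe sets list 1 gene, of which 20758 were found in the GRCr8 gene table. In lists a gene is represented by its brightest tested probe set, and some genes stand in more than 1 list. From each list the text names up to 4 rises and 4 falls past the threshold, the 2 largest changes where there were none, and fixed genes of the pathway. Any other gene named was picked with its values in view. The members and lists were chosen with earlier results of these data known. Alternatives were quantile normalization, median centring, offsets of 1 and 64, no filter, a filter at the 60th percentile, no trend, robust variance, each array left out, a threshold of 0.10 and averaging the probe sets of each gene. Plots were drawn with matplotlib 3.10.9.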

Additional observations from a re-analysis of the deposited data

How the results depend on the processing

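No paired analysis was possible because replicate numbers follow accession order and tie no arrays together. Leaving out 1 array leaves a lone array in its group, which is then assumed to vary like the other group. Irf1 (-1.49 to -1.31) and Stat2 probe set 1373670_at (-1.99 to -1.47) kept their calls in every alternative run. With each array left out, the log2 change ran from -0.61 to -0.26 for Irf7, -0.34 to -0.09 for Stat2 probe set 1389571_at, -1.52 to -0.75 for Cxcl10, -0.77 to -0.32 for Mx1, -0.85 to 0.08 for Mx2 probe set 1369202_at (0.0796 without immobilized 1), -0.86 to -0.66 for Mx2 probe set 1387283_at, 0.76 to 1.38 for Isg15, -0.61 to -0.39 for Psmb8 and -0.45 to -0.22 for Psmb9. The falls among the 11 probe sets then numbered 2 to 6 and the rises 0 to 1.

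Under other settings, Mx2 probe set 1387283_at missed the threshold after quantile normalization (-0.61), median centring (-0.62) and with no filter (-0.76). Psmb8 missed it after median centring (-0.36), with no filter (-0.50) and without the trend (-0.50). Psmb9 passed it after quantile normalization (-0.46). The 11 probe sets gave 3 falls after median centring, where 13.4% of all probe sets fell, and 3 with no filter. The share of all probe sets that fell was not computed with no filter or with the filter at the 60th percentile. Mx1 and Mx2 probe set 1387283_at were too dim to test with the filter at the 60th percentile, which left 4 falls. The cause was not tested, except that a stricter filter leaves fewer genes to test.

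Counts of list genes that moved over 1.5 times were as follows, and the numbers tested in the main fit stand with each list above. The share of all genes called moved as well. Falls made up 21.8% of all genes in the main fit, 20.3% after quantile normalization and 15.0% after median centring. Rises made up 11.2% in the main fit and 14.6% after median centring. For the other settings here that share was not computed, so the counts describe the settings and not the lists. After quantile normalization 0 ligands rose, 3 receptor and signalling genes fell, 2 IRF family genes rose, 5 type I stimulated genes rose, 2 Isg15 pathway genes rose and 4 proteasome genes fell. After median centring 2 receptor and signalling genes fell, 2 IRF family genes rose, 6 type I stimulated genes rose, 2 Isg15 pathway genes rose, and 1 MHC class I gene rose and 0 fell. With no filter 0 ligands rose, 0 fell and 2 receptor and signalling genes fell, and with the filter at the 60th percentile 0 ligands fell and 2 receptor and signalling genes fell. Without the trend 0 ligands rose, 3 receptor and signalling genes fell, 1 interferon gamma stimulated gene rose and 1 MHC class I gene fell. At a threshold of 0.10, 2 IRF family, 5 type I, 2 Isg15 pathway and 1 MHC class I genes rose. With probe sets averaged per gene 2 IRF family and 2 Isg15 pathway genes rose.

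With each array left out, falls and rises ran from 7 to 17 and 2 to 3 for type I genes, 3 to 4 and 1 to 2 for interferon gamma stimulated genes, 1 to 4 and 1 to 2 for receptors and signalling, 0 to 3 and 0 to 2 for the IRF family, 1 to 3 and 1 to 3 for negative regulators, 0 to 1 and 1 to 2 for the Isg15 pathway, 0 to 3 and 0 to 1 for MHC class I, 3 to 4 and 1 to 3 for sensing, 0 to 1 and 0 to 1 for ligands, and 0 and 0 for the proteasome. The share of all genes called was also much lower with an immobilized array left out, so these ranges are not results about the lists alone. Signal over background does not limit the members, but Ifnb1, Ifng and Socs1 were too dim to be tested.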
